A study of Homo sapiens with 14 samples.

Results

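To describe where p-JUN and 3 histone marks lay at genes of pericellular proteolysis, peak lists from LX-2 cells were examined at TIMP1, TIMP2, TIMP3, TIMP4, SERPINE2, PLAU, PLAUR and PLAT. LX-2 is an immortalised human hepatic stellate cell line, and its cells had spent 2 days on matrix that was either soft or stiff, with no other agent named. Any peak that touched a gene body or the 20 kb on either side of it was assigned to that gene, using GENCODE release 44 on hg19 (GRCh37). These 8 genes, of 19794 protein-coding genes on the chromosomes used, were chosen by name and not by a rule on their values. Earlier results of these data were known when they were chosen. Their windows held 244 of the 351202 peaks in 14 lists. CUT&Tag, in which an antibody guides a transposase to its target, was used for phosphorylated JUN (p-JUN, the activated form of an AP-1 subunit), H3K4me3, H3K27ac and H3K27me3. There were 2 libraries per matrix for p-JUN, H3K4me3 and H3K27me3, and 1 merged list per matrix for H3K27ac, which therefore has no replicate error. The p-JUN libraries labelled stiff carry the abbreviation TCP in their titles, the study's term for culture plastic, whereas the stiff histone libraries carry 40K. The p-JUN comparison is therefore between libraries labelled soft and libraries labelled stiff.

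The TIMP proteins are secreted inhibitors of matrix metalloproteinases, the enzymes that cut collagen and other matrix proteins. The plasminogen activators PLAU (urokinase) and PLAT (tissue plasminogen activator) cleave plasminogen to plasmin, PLAUR is the cell surface receptor that holds urokinase, and SERPINE2 (protease nexin-1) inhibits thrombin and both activators. In liver fibrosis, activated stellate cells are known as a source of TIMP1 and TIMP2. H3K4me3 marks promoters, H3K27ac marks active promoters and enhancers, and H3K27me3 is a repressive mark. AP-1 dimers of JUN and FOS proteins recognise a short palindrome, written TGACTCA or TGAGTCA.

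The median p-JUN summit held 60 to 64 fragments in the 4 libraries, the median H3K4me3 summit 120 to 207, and the median H3K27ac summit 27 (soft) or 26 (stiff). No p-JUN peak was listed under 14 fragments, and the lowest H3K4me3 and H3K27ac counts were 10 and 8. A missing peak therefore means a site that did not reach the lists, not a site without signal. Over 40433 regions the 2 p-JUN soft libraries differed by less than sampling noise, with a chi-square per degree of freedom of 0.75, against 1.08 for the 2 libraries labelled stiff and 1.86 to 2.36 between matrices. They were therefore also counted as 1 sample, and the limma calls of member regions below are given both ways. For H3K4me3 the same measure was 1.15 within soft and 1.16 within stiff. The study's methods describe its sequencing replicates as biological, but the labels tie no library to a culture, so p-values measure the spread between libraries, which may be technical. H3K4me3 peaks stood at a start of 4 of 8 stellate or myofibroblast markers in all 4 libraries (ACTA2, COL1A1, PDGFRB and THY1). They were called at HAND2 in 2 libraries and were absent at COL1A2, DES and LRAT. They were absent at all 4 hepatocyte markers, including ALB, at the endothelial marker CDH5 and at the leukocyte markers PTPRC and CD68. Of the epithelial markers, EPCAM had them in all 4 libraries and KRT19 in none. The endothelial marker PECAM1 was not found under that symbol in the annotation. The other marks did not follow this division. p-JUN stood at a start in all 4 libraries at 2 of the 8 stellate markers (ACTA2 and COL1A1), and also at HNF4A, CDH5 and CD68. H3K27ac was called at a start of ACTA2 and CD68 in both lists and of COL1A1 and PDGFRB in 1.

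The stretches of the reference genome that carry an AP-1 motif under a p-JUN summit are shown for the tallest such region of TIMP2, TIMP4, SERPINE2, PLAU and PLAUR and for the 1 member region with a motif that was called in the libraries labelled stiff alone. PLAT also has summits with a motif, and their sequence is not shown. Both forms of the motif were searched on both strands, with the motif centre within 50 bp of the summit, and the motif is in capitals on the plus strand of hg19.
TIMP2 region 1, upstream, chr17:76932044-76932073: ggacctggaggtTGAGTCAgggtgatccag
TIMP4 region 1, intron, chr3:12197488-12197517: ctccagtgcctaTGACTCAtcaagagccat
SERPINE2 region 3, intron, chr2:224860495-224860524: agctcatgtttaTGAGTCAccaggacaaca
SERPINE2 region 4, intron, stiff alone, chr2:224841469-224841498: aagtttgaaccaTGACTCAcagagcaaaaa
PLAU region 2, upstream, chr10:75654471-75654500: ctgggttaaaaaTGAGTCAagccttggcag
PLAUR region 2, upstream, chr19:44179749-44179778: ccttcctcctcgTGACTCAcctgggcctca

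Motifs were found at 33.3% and 38.2% of member p-JUN summits in the soft libraries and at 40.5% and 37.1% in the libraries labelled stiff. Over the whole lists the shares were 32.2%, 32.4%, 32.8% and 30.6% in the same order. The share at members was above that of its list in each library, but not with the motif centre within 100 bp of the summit, where the means over 4 libraries were 42.4% at members and 43.2% over the lists. Within 50 bp it was 23.4% (mean of 4 libraries) when peaks outside gene bodies were left out, against 32.0% over the whole lists. TIMP1 and TIMP3 had no motif under any p-JUN summit.

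H3K4me3 was called within 1 kb of an annotated start in all 4 libraries at 7 of the 8 genes, TIMP4 being the exception, against 62.8% of protein-coding genes. At PLAU that start was internal, with the H3K4me3 region 2.5 kb downstream of the 5′ end. At 6 genes p-JUN was called at a start in all 4 libraries (38.2% of protein-coding genes). SERPINE2 had it in 3 libraries and TIMP4 in none. H3K27ac was called at a start in both lists at TIMP2, PLAUR and PLAT (21.3% of protein-coding genes). At PLAT that start was internal, with the region 11.3 kb downstream of the 5′ end, and no H3K27ac peak was listed at the 5′ end itself. H3K27ac was called in the soft list alone at TIMP1 and PLAU (10.7%) and in the stiff list alone at no member (2.58%). TIMP4 had no peak of any mark at its start, as did 25.2% of protein-coding genes.

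**Figure D1:**
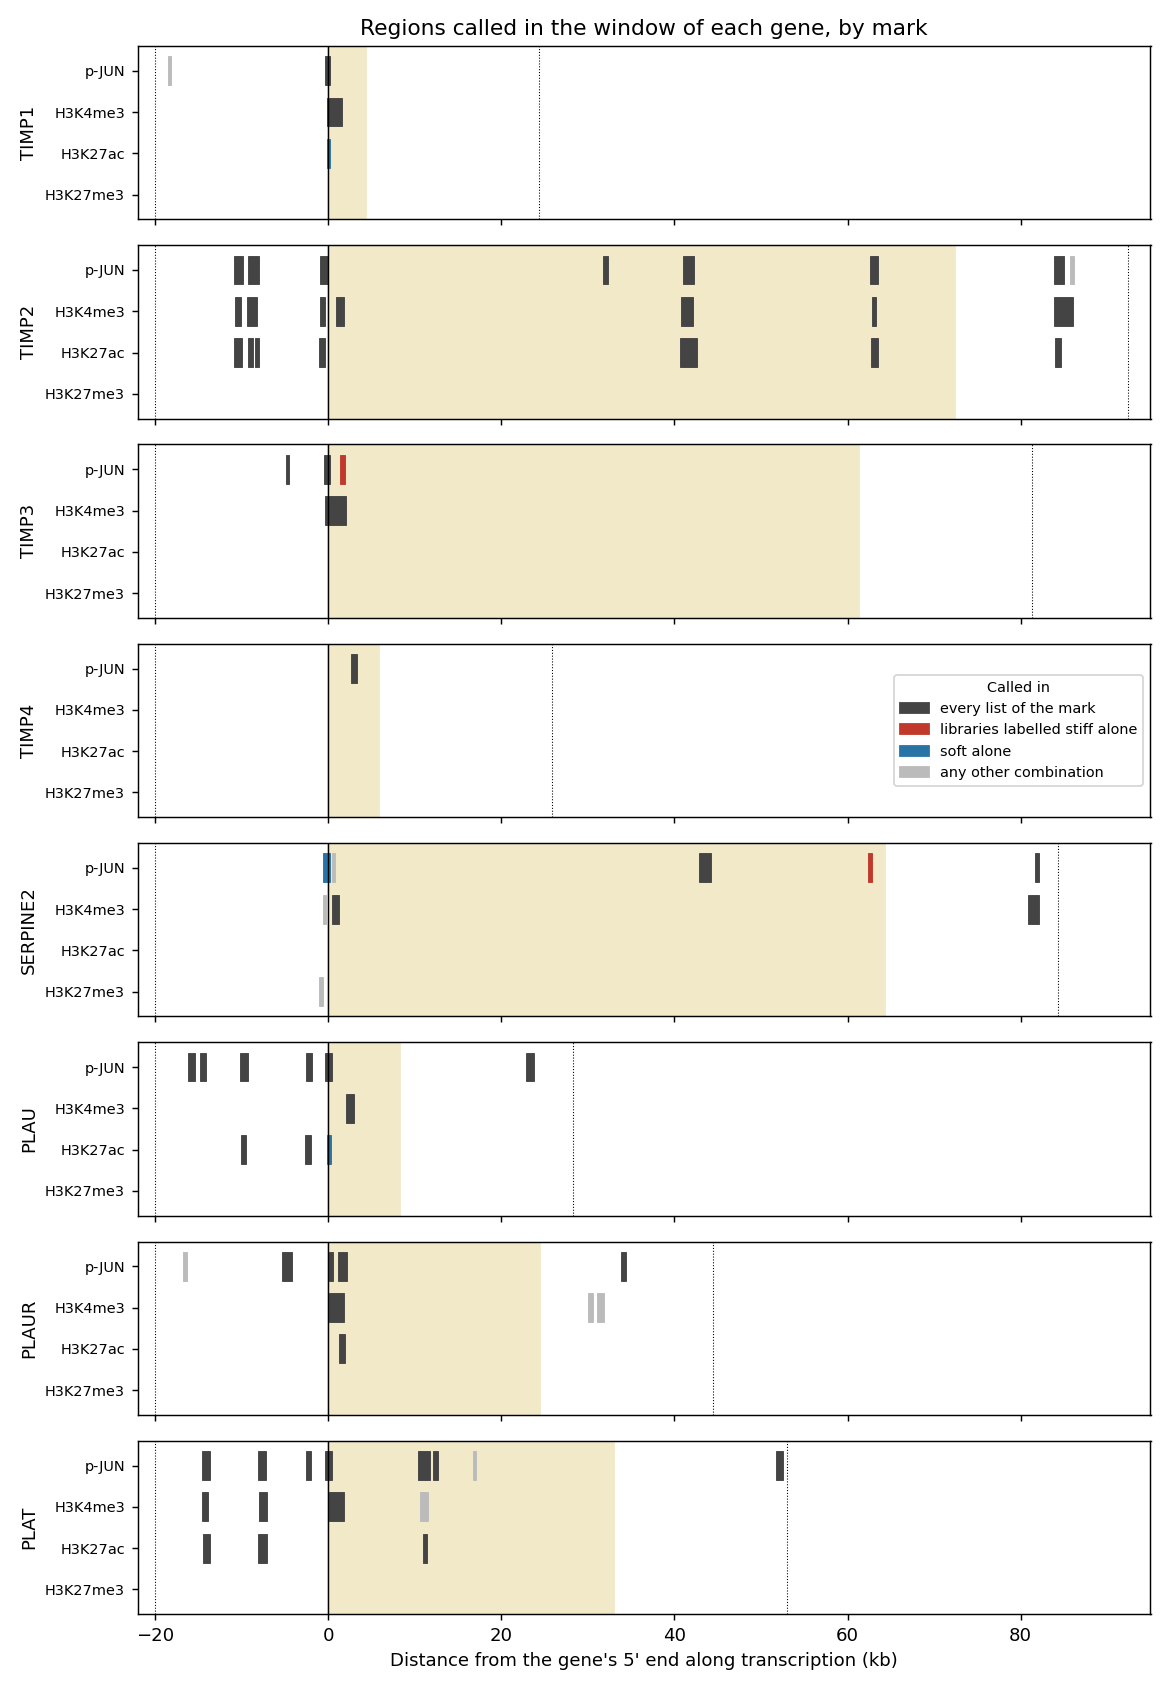
Regions called for each mark (rows) in the window of each gene (panels), against the distance from the gene's 5′ end in kb, with the gene body shaded and the window ends dotted. Dark bars were called in every list of the mark, red bars in the libraries labelled stiff alone, blue bars in soft alone and grey bars in any other combination. TIMP2 has 7 regions each of H3K4me3 and H3K27ac, and TIMP4 has 1 p-JUN region and nothing else.

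Peaks of the 4 p-JUN libraries formed 38 regions in the member windows, from 1 at TIMP4 to 8 each at TIMP2 and PLAT, where the median protein-coding gene had 2. The windows were 44.4 to 112.4 kb long, and per 100 kb PLAU had 12.4 regions, TIMP2 7.12 and the median gene 3.04. Of the 38 regions, 30 were called in all 4 libraries, against 65.8% of the 61411 p-JUN regions genome-wide. Regions called in both libraries labelled stiff and in neither soft library numbered 2 (2.75% of all regions were of this kind), and 1 was called in both soft libraries alone (1.74% of all). The windows held 33 and 34 peaks on soft against 37 and 35 in the libraries labelled stiff. The counts on soft were both below those on stiff, and the log2 ratio of the means was 0.10 (two-sided exact permutation test, p = 0.333, the smallest p that 2 libraries against 2 allow). With a 50 kb flank the log2 ratio was 0.0, and with lists cut to equal length the exact permutation test gave p = 0.667.

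TIMP2, an inhibitor that also takes part in the activation of MMP2, had the tallest p-JUN sites among the members. Region 6, in an intron 63.1 kb downstream of the 5′ end (chr17:76857982-76858856), held 1035 and 932 fragments on soft against 840 and 993 in the libraries labelled stiff. Region 1, 10.6 kb upstream (chr17:76931377-76932385), held 662 and 552 on soft against 541 and 673 on stiff, and its motif is printed above. The raw heights of the matrices overlapped at both. At region 6 no motif lay within 50 bp of the summit, and within 250 bp there was one in all 4 libraries. By contrast, the p-JUN region at the TIMP2 start (region 3) held 57 and 56 fragments on soft against 44 and 49 on stiff. The tall sites at 10.6 kb upstream, 8.3 kb upstream, 41.8 kb and 63.1 kb downstream carried H3K4me3 and H3K27ac peaks on both matrices. Regions 7 and 8 lie within 1 kb of a start of the neighbouring gene USP36, and the gene CEP295NL lies within the TIMP2 body, so assignment to TIMP2 is by distance only.

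TIMP1, the broadly acting inhibitor often measured in fibrotic tissue, had 1 p-JUN region in all libraries, at its start (chrX:47441483-47442017). It held 118 and 80 fragments on soft against 77 and 82 on stiff, so soft replicate 1 stood above the other 3 libraries. A further region, at -18.4 kb from the 5′ end, was called in stiff replicate 1 alone, with 36 fragments, 2.8 kb from a start of ARAF. H3K27ac at the TIMP1 start was called in the soft list alone, with 26 fragments.

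TIMP3, which binds to the extracellular matrix, had p-JUN in all libraries 4.7 kb upstream and at its start. The region at the start (chr22:33197181-33197872) held 63 and 70 fragments on soft against 54 and 61 on stiff. Another region, in an intron 1.7 kb downstream of the 5′ end (chr22:33199099-33199596), was called with 34 and 45 fragments in the libraries labelled stiff and in neither soft library. It lay within the H3K4me3 region of the TIMP3 promoter, which was called in all 4 H3K4me3 libraries. No H3K27ac peak was listed anywhere in the TIMP3 window. TIMP4 had a p-JUN region in an intron 2.9 kb from its 5′ end (chr3:12197103-12197826) and no other region. It held 89 and 71 fragments on soft against 85 and 80 on stiff, with a motif under the summit in each library, and the groups overlapped. The study gives TIMP4 as an example of raised accessibility and H3K27ac on stiff, with unchanged histone methylation at its promoter. Its figure shows normalized signal, whereas the lists used here hold called peaks only. The absence of listed histone peaks at TIMP4 therefore does not show that signal was absent.

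SERPINE2 was the member with the most regions that were not shared by all p-JUN libraries, 3 of its 5. At its start, region 1 (chr2:224903860-224904644) held 31 fragments in each soft library and was listed in neither library labelled stiff. Region 2, also at the start (chr2:224903259-224903595), was listed in soft replicate 2 with 26 fragments and in stiff replicate 2 with 21. Region 4, in an intron 62.5 kb downstream (chr2:224841238-224841698), held 17 and 22 fragments in the libraries labelled stiff and was listed in neither soft library. These heights are low beside the median summit of their lists. Its intronic region 3 (chr2:224859785-224861231) was shared, with 60 and 43 fragments on soft against 39 and 40 on stiff. Region 5 lies at a start of MRPL44. No H3K27ac peak was listed in the SERPINE2 window. Its H3K27me3 peak, 0.8 kb upstream and the only H3K27me3 peak of all 8 windows, was called in soft replicate 1 alone, the list with 19843 peaks where the other 3 held 6974 to 9228.

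PLAU, which encodes urokinase, had 6 p-JUN regions, and all 6 were called in all 4 libraries. They lay 15.6, 14.5, 9.8 and 2.3 kb upstream, at the start and 23.3 kb downstream of the 5′ end. The region at the start (chr10:75668599-75669420) held 471 and 431 fragments on soft against 338 and 437 on stiff. Region 4, 2.3 kb upstream (chr10:75666313-75667041), held 412 and 365 on soft against 365 and 475 on stiff. Regions 1, 2 and 3, further upstream, held 152 to 326 fragments over the 4 libraries, and each carried a motif under its summit in at least 3 of them, as did the downstream region 6 (39 to 51 fragments). The start and region 4 did not, although they were the tallest. Within 250 bp of the summit a motif lay at the start in all 4 libraries, and at region 4 in none.

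PLAUR, the urokinase receptor, had its tallest p-JUN region in an intron 1.7 kb downstream of its 5′ end (chr19:44172572-44173539), with 334 and 268 fragments on soft against 252 and 326 on stiff. It overlapped H3K4me3 in all 4 libraries and H3K27ac on both matrices. Region 2, 5.1 kb upstream (chr19:44178937-44180097), held 124 and 93 fragments on soft against 66 and 86 on stiff, so that both soft libraries were above both libraries labelled stiff. Region 1, 16.5 kb upstream, was listed in 1 library per matrix, with 22 fragments in soft replicate 1 and 21 in stiff replicate 1. Region 5 lay 3.5 kb from a start of the neighbour CADM4.

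PLAT, which encodes tissue plasminogen activator, had 8 p-JUN regions, 7 of them in all libraries. The tallest was region 5, in an intron 11.2 kb downstream of the 5′ end (chr8:42053481-42054902) and within 1 kb of an internal start of an annotated PLAT transcript. It held 468 and 443 fragments on soft against 435 and 475 on stiff, with a motif under the summit in each library. The region at the 5′ end (chr8:42064777-42065577) held 195 and 175 on soft against 146 and 225 on stiff. At 14 and 7.5 kb upstream p-JUN coincided with H3K4me3 in all libraries and with H3K27ac on both matrices. Region 7 was listed in stiff replicate 1 alone, with 71 fragments. The last region lies 1.2 kb from a start of AP3M2.

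**Figure D2:**
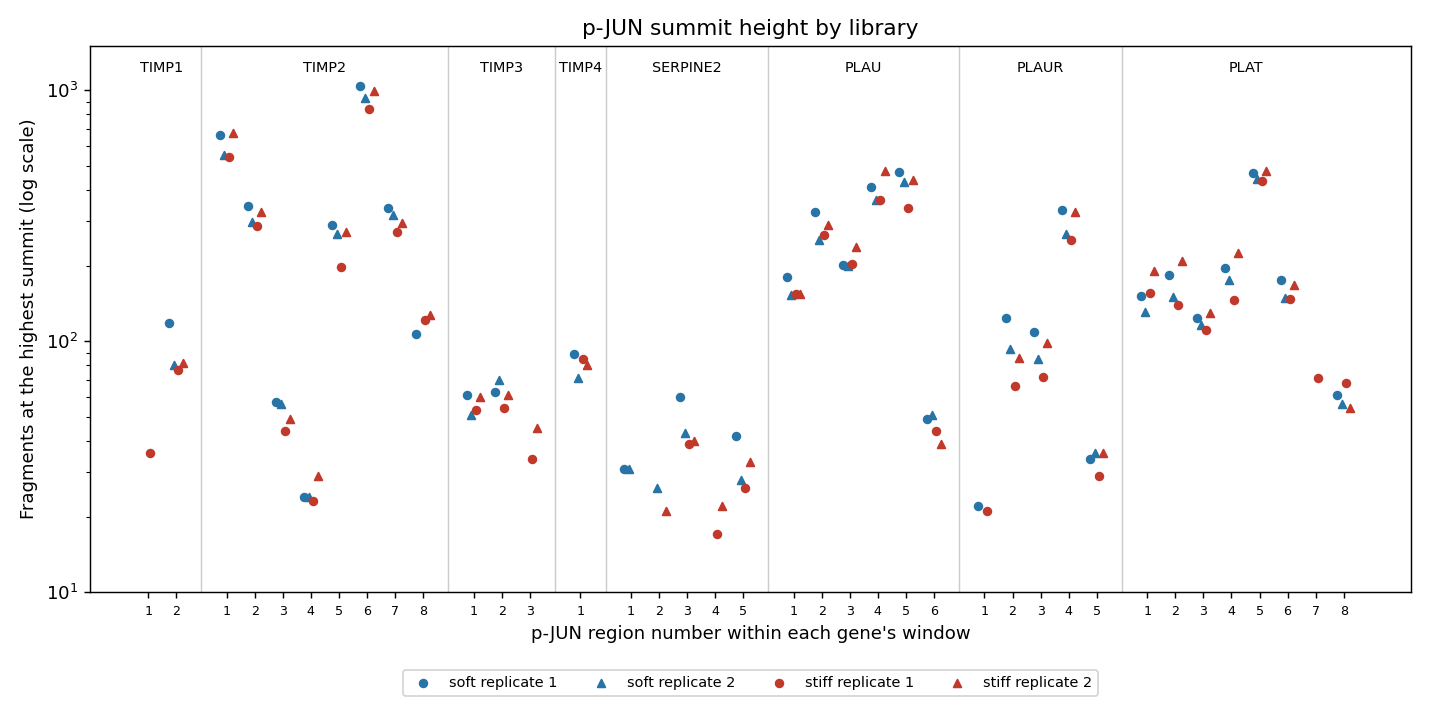
Fragments at the highest p-JUN summit (log scale) of each region, numbered along each gene's window in the direction of transcription, with blue points for the 2 soft libraries and red points for the 2 libraries labelled stiff. A missing point means that the library listed no peak there. Heights run from 840 to 1035 fragments over the 4 libraries at TIMP2 region 6 down to 17 and 22 at SERPINE2 region 4, which only the libraries labelled stiff list.

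Compared over all 40433 regions called in every p-JUN library, heights were set on the log2 scale, centred on each library's median and tested with limma. With the 2 soft libraries counted as 1 sample, none of the 30 member regions had an adjusted p under 0.05 in the limma fit. In that fit 1.56% of all regions were higher on stiff and 0.858% lower. With the libraries counted as 2 samples, 5 of the 30 were lower on stiff and 0 higher, against 7.37% lower and 6.15% higher among all regions. Of 8747 regions at least as tall as the median member, 1222 were lower and 551 higher, and 4 of the 15 members of that height were lower. The median difference of the members was -0.12, and that of all regions -0.05. Below 0 were 26 of the 30 members and 57.9% of all regions.

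The region past the threshold with the greatest difference was PLAUR region 2, with a log2 difference of -0.57 ± 0.15 (SE, n = 2 libraries per matrix) and an adjusted p of 0.00388 in the limma fit. Centred log2 heights there were 0.60 and 0.41 on soft and -0.15 and 0.02 on stiff, with no overlap. At the PLAU start the difference was -0.29 ± 0.08, from 2.52 and 2.62 on soft to 2.21 and 2.36 on stiff (limma, adjusted p = 0.00501). The other 3 were in the TIMP2 window. Region 5 differed by -0.32 ± 0.09 (limma, adjusted p = 0.00984), region 7 at USP36 by -0.27 ± 0.09 (adjusted p = 0.0211), and region 6 by -0.16 ± 0.06 (adjusted p = 0.0454). The adjusted p of these 5 regions was 0.101 to 0.215 with the soft libraries counted as 1 sample. With 1 library left out the limma call was lost at PLAUR region 2 without soft replicate 1 (adjusted p = 0.206), and at the PLAU start without soft replicate 2 (0.137) or stiff replicate 1 (0.0589). TIMP2 region 6 lost it whichever library was left out, region 5 without soft replicate 1, soft replicate 2 or stiff replicate 1, and region 7 without soft replicate 1, soft replicate 2 or stiff replicate 2. Thus 1, 1, 2 and 3 of the 5 passed without soft replicate 1, soft replicate 2, stiff replicate 1 and stiff replicate 2. On the deposited fold 0 of all 40433 regions passed, members included. Without centring no member passed, and among all regions only 202 were higher and 20 lower. After quantile normalization 2 members passed, with 2351 of all regions higher and 1477 lower.

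At PLAT no site passed the threshold in either fit. Its 7 regions called in all libraries ranged from -0.10 to 0.23 on the log2 scale, the latter 14 kb upstream (SE 0.11; limma, adjusted p = 0.16). The tallest PLAT region differed by -0.06 ± 0.07 (SE, n = 2 libraries per matrix). TIMP4 region 1 had a difference of 0.00 ± 0.16. None of these p-values shows that the heights were alike.

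**Figure D3:**
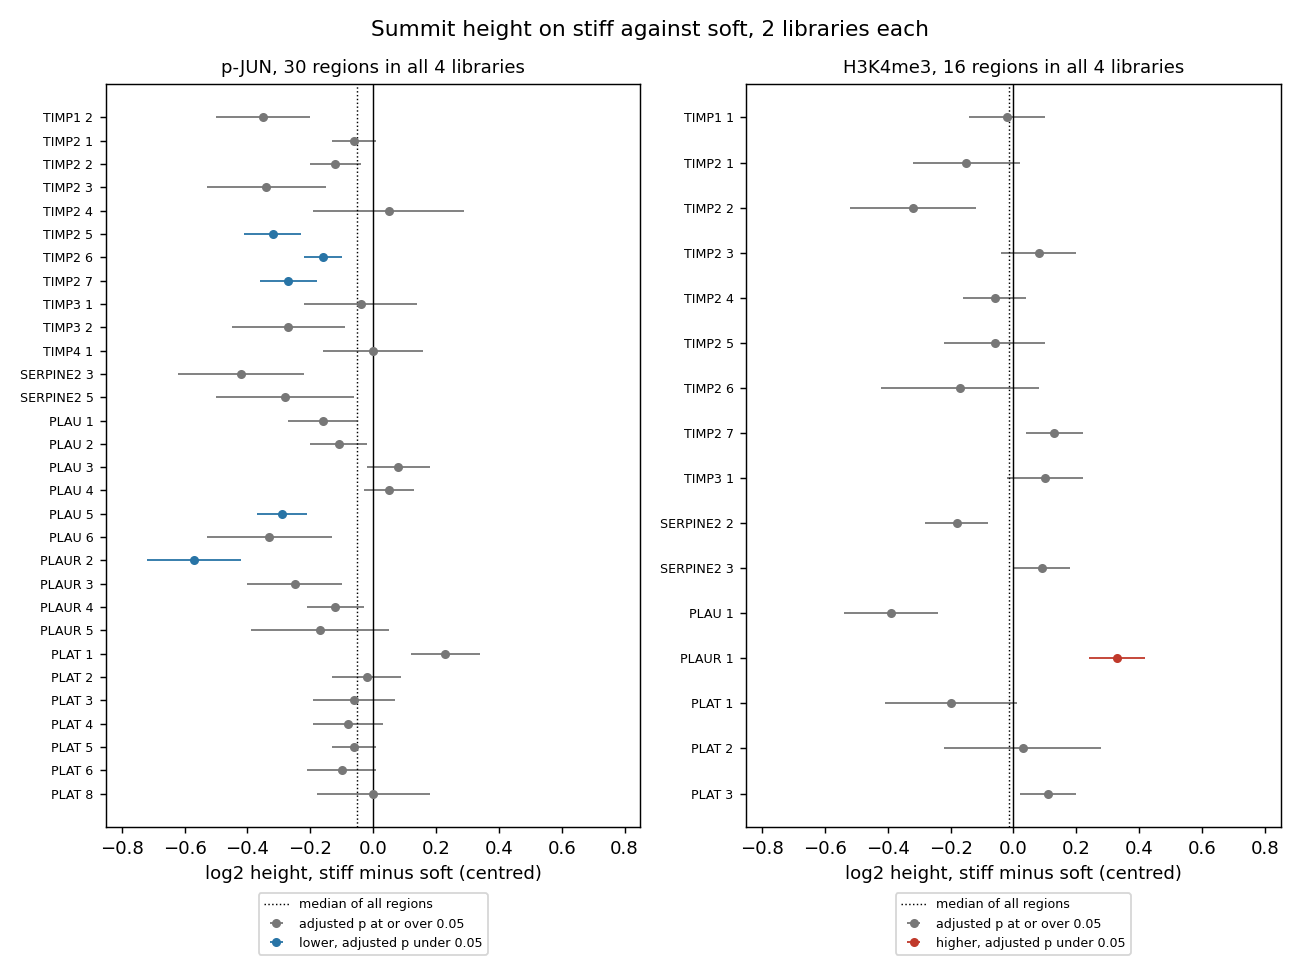
Difference in centred log2 summit height, stiff minus soft, for member regions called in all 4 libraries of p-JUN (left) and H3K4me3 (right), with the standard error of the limma fit over 2 libraries per matrix as bars and the median of all regions dotted. Coloured points had an adjusted p under 0.05 with each library counted as a sample. With the p-JUN soft libraries counted as 1 sample, no p-JUN point is past that threshold.

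H3K4me3 formed 20 regions in the member windows, 16 of them called in all 4 libraries (78.9% of 20393 regions genome-wide). None was called on stiff alone (1.77% of all) and none on soft alone (1.25% of all). The windows held 19 and 20 peaks on soft against 17 and 20 on stiff, with a log2 ratio of -0.08 (two-sided exact permutation test, p = 1.0). The remaining 4 regions were called in 2 or 3 libraries, at the SERPINE2 start, at an internal start of PLAT and at CADM4 in the PLAUR window. TIMP1 had 2 peaks in each soft library and 1 in each stiff library (two-sided exact permutation test, p = 0.333, the smallest possible). Its peaks covered 1206 and 922 bp on soft against 564 and 1271 bp on stiff, which overlapped.

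The promoter region of PLAUR (chr19:44172869-44174566) held 170 and 234 H3K4me3 fragments on soft against 291 and 412 on stiff. After centring these were 0.34 and 0.50 on soft and 0.77 and 0.73 on stiff, a log2 difference of 0.33 ± 0.09 (SE, n = 2 libraries per matrix; limma, adjusted p = 0.0451). It was the 1 member region past the threshold, where 2.29% of 16098 regions were higher and 2.17% lower. On the deposited fold, where its difference was 0.02, 0 of all 16098 regions passed. Without centring, where all regions had a median of 0.45, the call was lost, and among all regions only 1 was higher and 0 lower. The call was lost after quantile normalization too, with 56 of all regions higher and 45 lower, against 369 and 349 in the main fit. It was also lost without soft replicate 1, stiff replicate 1 or stiff replicate 2, with adjusted p of 0.137, 0.171 and 0.16. The only PLAU region lay 2.5 kb downstream of the 5′ end, by an internal start. It overlapped neither the p-JUN nor the H3K27ac region at the PLAU start. Its difference was -0.39 ± 0.15 (limma, adjusted p = 0.142), with 71 and 109 fragments on soft against 80 and 108 on stiff. The promoter differences of TIMP1, TIMP3 and PLAT were -0.02 ± 0.12, 0.10 ± 0.12 and 0.11 ± 0.09, and that of SERPINE2 -0.18 ± 0.10. The median of the 16 members was -0.04, with a median of -0.01 for all regions, and its sign turned after quantile normalization (0.065).

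H3K27ac formed 15 regions, of which 13 were called in both lists (54.1% of 20403 regions genome-wide), 2 in the soft list alone (35.0% of all) and 0 in the stiff list alone (10.9% of all). TIMP2 had 7 of them, more than 98.6% of protein-coding genes, though per 100 kb its 6.23 were close to the 6.21 of PLAU. PLAU and PLAT had 3 each, PLAUR and TIMP1 1 each, and TIMP3, TIMP4 and SERPINE2 none. The regions of the soft list alone were at the TIMP1 start (chrX:47441680-47441989, 26 fragments) and at the PLAU start (chr10:75668844-75669234, 50 fragments). At PLAU the sites 9.7 and 2.3 kb upstream were listed on both matrices, with 47 and 83 fragments on soft against 37 and 67 on stiff.

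At the intronic PLAUR region (chr19:44172718-44173434) H3K27ac reached 63 fragments on soft against 32 on stiff. The log2 ratio was -0.98, and its 95% exact binomial interval ran from -1.64 to -0.34. This was -0.77 after subtraction of the median ratio of all 11041 regions in both lists, -0.21. It was the only member region lower on stiff by at least 1.5-fold after centring, as were 4.92% of all regions, and 0 of the 13 were higher by that much (6.18% of all). Of the other 12, only TIMP2 region 1, with 107 and 78 fragments, had an uncentred interval that left out 0 (-0.90 to -0.02), and its centred ratio was -0.25. With 1 list per matrix no test between matrices is possible, and the intervals cover counting error only. At the same intronic site of PLAUR, the p-JUN height differed by -0.12 ± 0.09 (limma, adjusted p = 0.383).

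**Figure D4:**
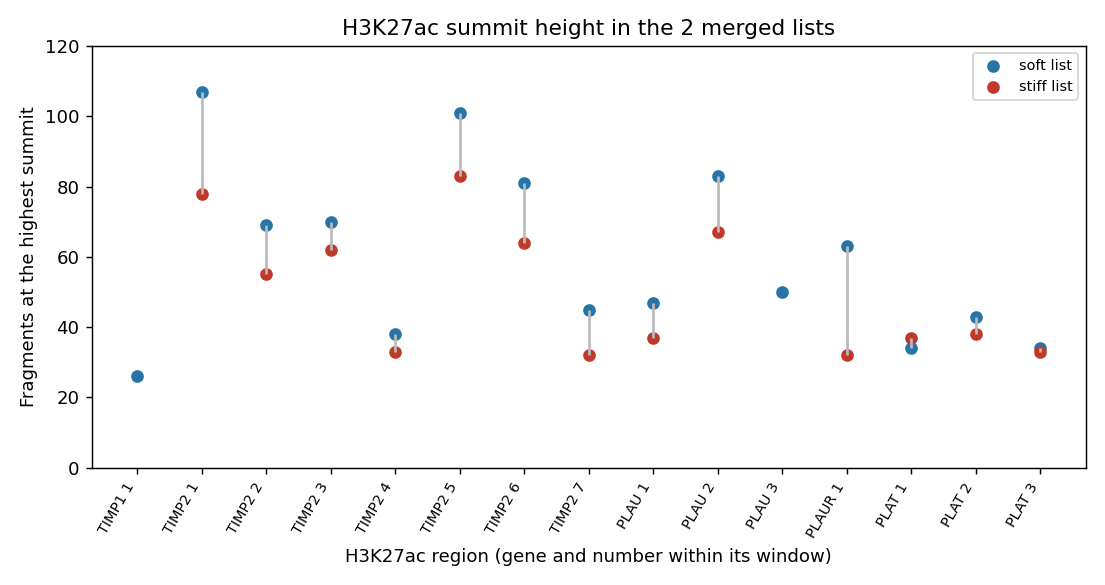
Fragments at the highest H3K27ac summit of each member region in the soft list (blue) and the stiff list (red), 1 merged list per matrix, with a line joining the lists. TIMP1 region 1 and PLAU region 3 have no point for the stiff list, and PLAUR region 1 has the widest gap, 63 against 32 fragments.

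Overlap of p-JUN regions with the other marks was counted for members and for all regions. H3K4me3 peaks overlapped 17 to 19 of the 38 member regions over the 4 libraries, and 20.1% to 21.4% of all p-JUN regions. H3K27ac peaks overlapped 36.8% on soft and 31.6% on stiff, against 26.9% and 20.1% of all. The windows are built around genes, so nearness to promoters is part of how these regions were chosen.

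The rest of the system was taken as 14 genes, among them plasminogen itself (PLG), its receptor PLGRKT, the binding partners ANXA2 and S100A10, the clearance receptor LRP1, the inhibitor SERPINB2, and RECK, a membrane-bound inhibitor of metalloproteinases. H3K4me3 stood at a start of 9 of the 14 in all 4 libraries, and p-JUN at 6, beside 62.8% and 38.2% of protein-coding genes. H3K27ac was called at a start of ENO1 in both lists (21.3% of protein-coding genes), at ANXA2, PLGRKT and SERPINI1 in the soft list alone (10.7%), and at no gene in the stiff list alone (2.58%). F12, KLKB1, PLG and SERPINF2, known mainly as products of hepatocytes, had no peak of any mark at a start (25.2% of protein-coding genes), whereas VTN, also such a product, had H3K4me3 there in all 4 libraries.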

How the data were processed

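Per the labels, the authors used Trim Galore for trimming, Bowtie2 for alignment to hg19 and Picard for duplicates, and peaks came from MACS2. MACS2 options and any control were not given in the sources used here, and the labels give 10000 cells per assay where the study's methods give more. Each deposited peak has a score, a fold (ratio of summit to local background) and −log10 p and −log10 q values, as the authors' peak caller wrote them. The deposited values of H3K27me3 are averages over broad peaks, so its depth is unknown. For narrow peaks, the deposited summit offset in bp gave the summit's position.

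Whole summit fragments were recovered from the deposited fold and −log10 p for at least 99.88% of narrow peaks of each list (relative error under 0.0001). Peaks of a mark were merged into regions when they shared 1 bp. Heights in shared regions were tested with limma 3.58.1 (R 4.3.3; trended eBayes, Benjamini-Hochberg adjustment over all regions), and libraries by exact permutation. The limma step was tested on simulated data. Alternatives were another flank, q limit, overlap, list length, scaling, motif window, replicate block and left-out libraries. The 250 bp motif window and the averaging of the soft p-JUN libraries were added after values had been seen. Named regions were, per gene, the tallest p-JUN region, the regions nearest the start, those called on 1 matrix alone and those past the limma threshold, and further regions were named after their values were seen. The members and gene lists were chosen with earlier results of these data known. An item of the pathway list is not reported here. Python 3.11.15, pandas 2.3.3, scipy 1.17.1 and pysam 0.24.0 were used.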

Additional observations from a re-analysis of the deposited data

How the results depend on the processing

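Without centring, the median p-JUN height difference of members was -0.064 and 0 of 30 members passed, with 202 of all 40433 regions higher and 20 lower. After quantile normalization it was -0.072 (2 of 30 passed) and on the deposited fold -0.017 (0 passed, as among all regions). In gene bodies alone it was -0.161 (3 of 13 passed) and at 50% reciprocal overlap -0.106. With a 50 kb flank 9 of 56 p-JUN member regions passed, all lower on stiff, beside 5 of 30 with the 20 kb flank. Among all regions 7.37% were lower in that fit. With the soft libraries averaged as 1 sample the member median was -0.12. Leaving out 1 library gave medians of -0.16 to -0.109 and 1 to 3 calls, 1 of them without soft replicate 1 and 1 without soft replicate 2. The H3K4me3 member median was 0.425 without centring and 0.065 after quantile normalization. Its 1 call among 16 regions fell to 0 under these, on the deposited fold and with the replicate block. Among all 16098 regions those settings called 1 higher and 0 lower, 56 and 45, 0 and 0, and 44 and 51, in that order. The main fit called 369 and 349. With a 50 kb flank 2 of 25 H3K4me3 member regions passed. Left-out libraries gave 0 or 1 call. The replicate block left 4 p-JUN calls, without TIMP2 region 6 (limma, adjusted p = 0.0617), and gave an adjusted p of 0.102 at the H3K4me3 region of PLAUR. Same-numbered libraries did not deviate together (correlations of p-JUN 0.051, H3K4me3 -0.061, H3K27me3 0.036), so the numbers were not taken as pairs. With the block, the log2 ratio of peak numbers was 0.103 for p-JUN and -0.08 for H3K4me3.

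For H3K4me3 peak numbers the log2 ratio was -0.198 to 0.037 with 1 library left out. p-JUN regions on stiff alone numbered 2 to 4 with 1 library left out and 1 at a −log10 q of at least 10, and those on soft alone 2 with a 50 kb flank. H3K4me3 regions on stiff alone then numbered 0 to 1 and on soft alone 0 to 2, and H3K27me3 regions on soft alone 0 to 1. H3K27ac regions in both lists numbered 4 in gene bodies and 23 with a 50 kb flank. In the soft list alone there were 6 with that flank, and in the stiff list alone 2 with it, 1 at a −log10 q of at least 10 and 1 with lists of equal length. The motif share at members was 23.4% in gene bodies and 42.4% within 100 bp of the summit, against 32.0% and 43.2% over the lists. Within 250 bp it was 61.0%, against 52.0% over the lists. The cause of these shifts was not tested.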
